A study of Homo sapiens with 10 samples.

Results

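The genes described here are 35 subunits of the mitochondrial respiratory chain and ATP synthase. They were chosen by gene symbol and not by a rule on measured values, although earlier results of these data were known. They are all 13 protein genes of the mitochondrial genome and 22 genes of the nuclear genome. The nuclear genes encode 9 subunits listed under complex I, the 4 of complex II, 4 of complex III and 5 of complex IV. The cells were of 2 human acute myeloid leukaemia lines. Kasumi-1 carries the RUNX1-RUNX1T1 fusion and NB4, a promyelocytic line, carries the PML-RARA fusion. Each line was kept for 48 h with 1 µM JOA, a compound known here only by that code, or with a control that the labels call only control. RNA was sequenced from 3 control and 3 JOA libraries of Kasumi-1 and from 2 control and 2 JOA libraries of NB4. The labels do not say whether the libraries of a group were separate cultures. Each p-value therefore reflects spread between libraries that may be technical. The titles and agent labels of the NB4 treated libraries name JOA, while their source label names another code, I13; they are called JOA here.

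The NB4 table held all 35 genes among 21961 genes with a symbol. The Kasumi-1 table lists RefSeq records, and only 8 of the 35 had a row that could be matched to a symbol, none of them mitochondrially encoded, so every statement on the mitochondrial genome comes from NB4. NB4 values are in TPM (a transcript's share of its library, adjusted for length) and Kasumi-1 values in FPKM (fragments per length and per library, also adjusted for length). The 2 tables were made separately, and levels are not compared across them. Sequencing depth is not known for NB4. In Kasumi-1, the steps between low values put the relative depth of the other libraries at 91.4% to 96.7% of that of control 1. Of 8 myeloid leukaemia markers, such as the granule enzyme gene MPO, all 8 reached 1 TPM in at least 1 NB4 library. ELANE did so in the controls alone, at 1.00 and 1.59 TPM, and was at 0.409 and 0.0786 TPM with JOA. The 3 markers with a row in Kasumi-1 were at 1 FPKM or more. Erythroid markers summed to at most 0.637 TPM in NB4 and 0.155 FPKM in Kasumi-1. Among the markers with a row, no library held a list of another cell type near the myeloid level. The highest sum of such a list was 51.1 TPM in NB4 (T and NK cell markers) and 44.4 FPKM in Kasumi-1 (epithelial markers). In Kasumi-1 only 1 of 6 T and NK cell, 1 of 6 fibroblast and 1 of 4 epithelial markers had a row. The B cell and erythroid lists had 2 of 5 and 3 of 5 there, so low Kasumi-1 sums do not show absence. The summed myeloid markers moved with treatment in NB4, from 8808 to 8931 TPM in the controls to 5224 to 6599 TPM with JOA. Most of that sum was MPO, at 7983 and 7693 TPM in the controls and 5886 and 4679 TPM with JOA. ELANE, AZU1, PRTN3, CTSG and CEBPA were also lower in both JOA libraries than in both controls. PRTN3 was at 141 and 257 TPM in the controls and at 41.9 and 41.0 TPM with JOA. CD33 went the other way, from 58.4 and 49.8 to 72.2 and 75.4 TPM, and SPI1 overlapped between groups. B cell markers (3 of 5 at 1 TPM or more) summed to 19.6 to 19.8 TPM in the NB4 controls and 24.2 to 25.0 TPM with JOA. T and NK cell markers (3 of 6) summed to 30.3 to 32.0 and 34.9 to 51.1 TPM. Most of this was CD3D, at 26.1 and 27.4 TPM in the controls and 31.8 and 47.3 TPM with JOA, while CD8A was lower with JOA, at 2.84 and 3.04 TPM in the controls and at most 1.70 TPM with JOA. In Kasumi-1 the myeloid markers summed to 5440 to 6166 FPKM and 5360 to 5934 FPKM. Their part in the results below was not tested.

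Oxidative phosphorylation moves electrons from NADH (through complex I) and from succinate (through complex II) by way of ubiquinone, complex III and cytochrome c to complex IV, which reduces oxygen. Complexes I, III and IV pump protons, and ATP synthase uses the gradient to make ATP. Complex II is encoded wholly in the nucleus, whereas the other complexes combine nuclear subunits, imported as proteins, with subunits made inside the mitochondrion. The mitochondrial genome is copied into long precursor RNAs from both of its strands, and most mRNAs are released when the transfer RNAs between them are cut out. MT-ND6 is the only protein gene read from the opposite strand to the rest.

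The mitochondrial genes lie end to end, and some overlap. This matters for the values, because 2 overlapping genes can share an mRNA and reads. In the GENCODE annotation of GRCh38, MT-ATP8 and MT-ATP6 share 46 bases at chrM:8527-8572, and MT-ND4L and MT-ND4 share 7 bases that end at position 10766. Both pairs are coding on the heavy-strand transcript, and each overlap begins with the start codon of the downstream gene, shown in capitals in sequences read from the plus strand.
MT-ATP8 and MT-ATP6, chrM:8527-8572: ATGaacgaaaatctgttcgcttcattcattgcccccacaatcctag
MT-ND4L and MT-ND4, chrM:10737-10766: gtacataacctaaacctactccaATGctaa

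Sequence elements known from respiratory chain genes were looked for in the promoters of the nuclear members. RefSeq promoter windows (GRCh38.p14, 250 bases before to 50 after the start) were found for 18 of the 22. NDUFB5, NDUFB9, SDHC and CYC1 had none in the table used. The core GCGCATGC of NRF1, a transcription factor known for its binding at respiratory chain promoters, was searched on both strands. It was in 5 of the 18 (27.8%) and in 3.05% of 35116 promoters. The ETS core CCGGAAG, the type of site bound by GABPA, was in 7 of 18 (38.9%) and in 10.3% of all promoters. The YY1 core AAGATGGC was in SDHB and UQCRC1, that is 11.1% of the 18, and in 2.89% of all promoters. In all, 9 of the 18 held at least 1 of the 3 cores and the other 9 held none. These are matches of letters and not measured binding. The promoters of the members and all promoters were not matched for base composition, so these shares are a description only. The 3 windows below hold the NRF1 core or its reverse complement, in capitals, and are shown as the promoters of 2 complex IV genes and 1 complex II gene with the same element. The sequences run 5′ to 3′ on the strand of the gene.
COX5B, chr2:97645906-97645953, plus strand: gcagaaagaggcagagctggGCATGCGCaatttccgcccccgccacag
COX6A1, chr12:120437919-120437966, plus strand: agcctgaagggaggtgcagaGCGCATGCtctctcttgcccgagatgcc
SDHB, chr1:17054205-17054252, minus strand: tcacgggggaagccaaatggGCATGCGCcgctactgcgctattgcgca

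In NB4, 12 of the 13 mitochondrially encoded mRNAs had a lower mean with JOA, with a median log2 change of -0.38 (10 of 13 and -0.22 without JOA 1), and 8 neighbouring genes from MT-CO1 to MT-ND4 lay lowest against their controls. None of the 13 passed the test over all genes, so these are differences in level between 4 libraries and not called changes. The test was limma on log2(TPM + 1) with Benjamini-Hochberg adjustment over 12941 genes and a threshold of 0.05. It called 1 gene in all, or 0.00773%. Before adjustment, 7 of the 13 and 1374 of all genes had p under 0.05. With bulk RNA, fewer cells of a type and less RNA per cell cannot be told apart. A TPM is a share of the library, so less mitochondrial RNA and more of the rest cannot be told apart either.

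MT-CO1, MT-CO2 and MT-CO3 encode the catalytic core of complex IV. MT-CO1 (chrM:5904-7445) was at 17756 and 20280 TPM in the 2 controls and at 13646 and 16382 TPM with JOA. MT-CO2 was at 17967 and 20540 TPM in the controls and at 13470 and 16073 TPM with JOA. MT-CO3 was at 20999 and 24450 TPM in the controls and at 15272 and 17874 TPM with JOA. In all 3 genes both JOA libraries were below both controls, and the groups did not overlap. The mean was 21.1% lower for MT-CO1, 23.3% lower for MT-CO2 and 27.1% lower for MT-CO3. The log2 change of MT-CO3 was -0.46 with an SE of 0.16 and a limma adjusted p of 0.403.

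MT-ATP8 and MT-ATP6 encode membrane subunits of ATP synthase. MT-ATP8 was at 7144 and 7398 TPM in the controls and at 5160 and 5443 TPM with JOA. MT-ATP6 was at 5285 and 5998 TPM in the controls and at 3852 and 4845 TPM with JOA. Again the groups did not overlap, and MT-ATP8 had the narrowest spread, with a log2 change of -0.46, an SE of 0.12 and the lowest limma adjusted p of the 35 genes, 0.294. The ratio of MT-ATP8 to MT-ATP6, whose coding sequences overlap, was 1.35 and 1.23 in the controls and 1.34 and 1.12 with JOA, so it overlapped between groups.

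The 7 mitochondrial complex I genes did not behave alike. MT-ND3 was at 8631 and 10416 TPM in the controls and at 6587 and 7885 TPM with JOA. MT-ND4L was at 34582 and 38536 TPM in the controls and at 24981 and 29368 TPM with JOA. MT-ND4 (chrM:10760-12137) was at 8149 and 9020 TPM in the controls and at 5865 and 7045 TPM with JOA. These 3 genes, next to each other on the genome, had means 24.0%, 25.7% and 24.8% lower with JOA and groups that did not overlap. MT-ND4L had the highest TPM of all 35 genes. Its TPM was 4.24 and 4.27 times that of MT-ND4 in the controls and 4.26 and 4.17 times with JOA. This ratio was nearly the same in the 4 libraries although both values were lower with JOA. TPM is adjusted for length, and the annotated lengths are 297 bases for MT-ND4L and 1378 bases for MT-ND4. These overlapping genes can share an mRNA and reads, so the ratio is not read as a difference in mRNA amount. The part of length in the ratio was not tested.

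MT-ND1 and MT-ND2 come first on the heavy strand. MT-ND1 was at 10875 and 12007 TPM in the controls and at 9789 and 11449 TPM with JOA, and the groups overlapped. MT-ND2 was at 4996 and 5431 TPM in the controls and at 4431 and 4800 TPM with JOA, without overlap but with a mean only 11.5% lower. At the other end, MT-ND5 was at 2527 and 2929 TPM in the controls and at 2222 and 2822 TPM with JOA. MT-ND6, the light-strand gene, was at 2885 and 3437 TPM in the controls and at 2790 and 3570 TPM with JOA. Both pairs of groups overlapped, and the log2 change of MT-ND6 was 0.00 with an SE of 0.15, or -0.10 with median-ratio scaling. MT-CYB, the mitochondrial subunit of complex III, was at 4138 and 3678 TPM in the controls and at 3873 and 3831 TPM with JOA. It had the smallest change after MT-ND6, with a log2 change of -0.02 and an SE of 0.12.

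**Figure D1:**
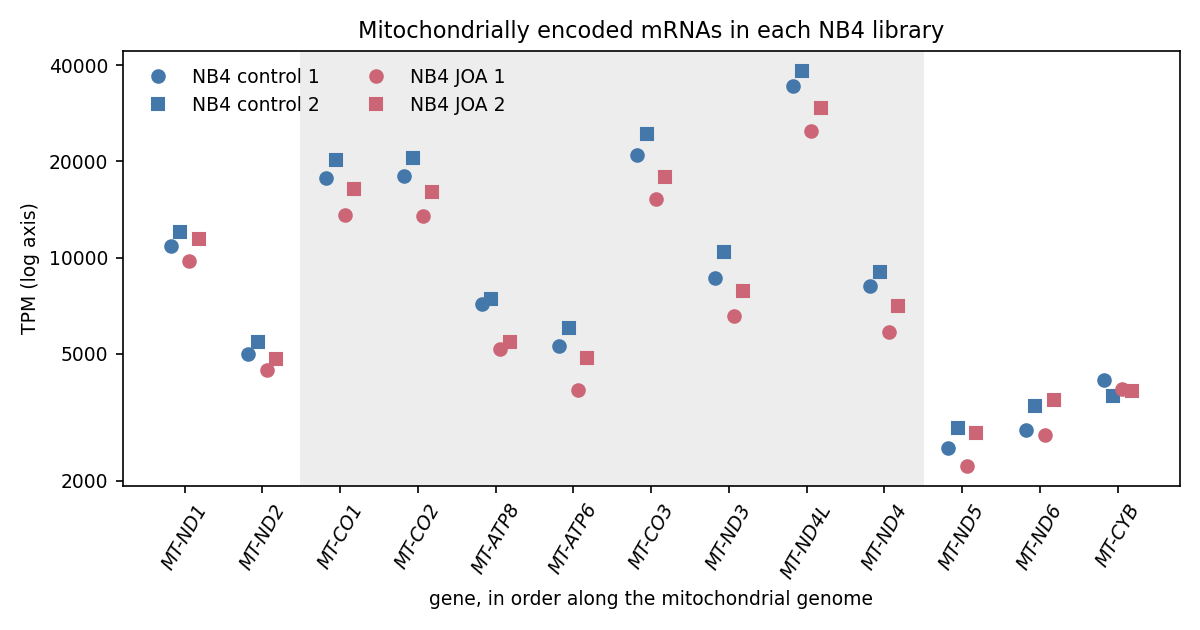
TPM on a log axis of the 13 mitochondrially encoded mRNAs in each of the 4 NB4 libraries (points; circles are replicate 1 and squares replicate 2), in their order along the mitochondrial genome. In the 8 genes of the grey band, MT-CO1 to MT-ND4, both JOA libraries sit below both controls, and outside it the same holds for MT-ND2 alone.

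In 9 of the 13 genes both JOA libraries were below both controls, and in none were both above. Over all genes tested the shares were 11.0% below and 32.5% above. The 13 genes share libraries and precursor RNAs, so they are not 13 independent observations. The 8 genes from MT-CO1 to MT-ND4 had log2 changes of -0.46 to -0.34. The 5 outside this stretch had log2 changes of -0.18 to 0.00. The stretch was marked out after the values were seen, so its difference from the flanks has no test. Measured within each library, where scaling cancels, the mean log2(TPM + 1) of the 8 genes exceeded that of the other 5 by 1.51 and 1.58 in the controls and by 1.21 and 1.24 with JOA. The 8 genes made up 82.6% and 83.3% of the mitochondrial TPM in the controls and 79.4% and 79.9% with JOA. They include the shortest of the 13 genes, MT-ATP8 (207 bases) and MT-ND4L (297 bases), and TPM is adjusted for length. Replicates of a group also differed across most of the genome. Control 2 was above control 1 in 12 of the 13 genes and JOA 2 above JOA 1 in 12 of the 13, with MT-CYB the exception both times.

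The 13 mRNAs together took 14.6% and 16.4% of the TPM in the control libraries and 11.2% and 13.1% with JOA. The mean share was 15.5% ± 1.29 (SD, n = 2) in the controls and 12.2% ± 1.38 (SD, n = 2) with JOA, a difference of -3.34 percentage points, and the groups did not overlap. Complex I genes held 7.27% and 8.18% in the controls and 5.67% and 6.70% with JOA. Much of this was MT-ND4L, at 34582 of 72645 TPM in control 1, so the complex I share depends on the TPM of this short gene. Complex IV genes held 5.67% and 6.53% in the controls and 4.24% and 5.03% with JOA. The ATP synthase pair held 1.24% and 1.34% in the controls and 0.901% and 1.03% with JOA. The lower share with JOA was thus spread over 3 complexes, while the MT-CYB share, from 0.368% to 0.414% in the 4 libraries, overlapped between groups. By contrast the 22 nuclear members together took 0.476% and 0.522% in the controls and 0.476% and 0.460% with JOA. Libraries of 2 against 2 allow no p under 0.05 in a permutation test, so none was run.

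**Figure D2:**
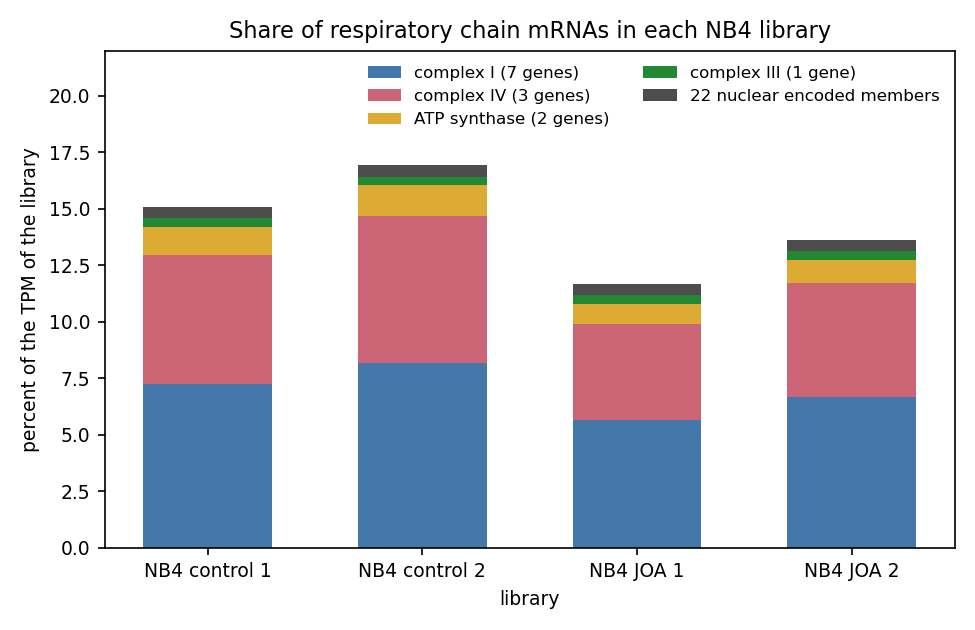
Percent of the TPM of each NB4 library held by the mitochondrially encoded mRNAs, stacked by complex, with the 22 nuclear encoded members on top. The mitochondrial part is 14.6% and 16.4% in the controls and 11.2% and 13.1% with JOA, while the nuclear part stays between 0.460% and 0.522%.

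The mean log2(TPM + 1) of the 13 mitochondrial genes was above that of the 22 nuclear members by 5.83 and 5.88 in the controls and by 5.51 and 5.76 with JOA. The gap changed by -0.22 with JOA, and both JOA libraries were below both controls. It rested mostly on JOA 1: without that library it changed by -0.09. Nuclear copies of mitochondrial genes, which can take up some of the same reads, were at 4.94% to 5.59% of the level of MT-ATP6 and 1.45% to 2.52% of that of MT-ND1. For each of the other 11 mitochondrial genes they were at most 0.181%. MTATP6P1, a copy of MT-ATP6, was at 311 ± 24.0 TPM in the controls and 222 ± 19.8 TPM with JOA (SD, n = 2). MTRNR2L12, a copy of mitochondrial ribosomal RNA sequence and the most abundant of the listed copies, was at 1590 ± 69.2 and 1531 ± 457 TPM (SD, n = 2), a log2 change of -0.09; it was added here after its value was seen. Of the copies named by rule, MTND2P28 had a log2 change of -0.18 and MTND1P23 one of -0.65 with an SE of 0.19.

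None of the 22 nuclear encoded members passed the test in NB4, and none had an unadjusted p under 0.05. Their mean was lower with JOA in 18 of 22 and their median log2 change was -0.07, beside 0.08 for all genes tested. This direction rested on control 2: without that library 10 of 22 were lower and the median was 0.01, beside 0.05 for all genes. With median-ratio scaling 20 of 22 were lower and the median was -0.17, beside -0.0048 for all genes. In 6 of the 22 both JOA libraries were below both controls, beside 11.0% of all genes, and in 2 both were above, beside 32.5%. Control means ran from 17.9 TPM for UQCRFS1, the iron-sulphur subunit of complex III, to 979 TPM for COX6A1.

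In complex I, 7 of 9 nuclear members had a lower mean with JOA and the median log2 change was -0.12, or 5 of 9 and -0.03 without control 2. NDUFS1, NDUFS3 and NDUFS8, subunits of the arm that takes electrons from NADH and passes them to ubiquinone, had log2 changes of -0.19, -0.19 and -0.20. NDUFS1 was at 31.9 and 30.6 TPM in the controls and at 25.5 and 28.9 TPM with JOA, without overlap. NDUFS3 was at 142.0 and 160.1 TPM in the controls and at 138.8 and 125.8 TPM with JOA, also without overlap, while the NDUFS8 groups overlapped. NDUFV1, which holds the NADH site (chr11:67605653-67612554), was at 345 and 349 TPM in the controls and at 309 and 323 TPM with JOA. Its groups did not overlap, and the log2 change was -0.14 with an SE of 0.09 and a limma adjusted p of 0.630. Transcripts annotated as retaining an intron made up 37.7% to 45.8% of NDUFV1, so much of its TPM is not from coding mRNAs. Its partner NDUFV2 had a log2 change of 0.04, which became -0.06 with median-ratio scaling. Among the accessory subunits, NDUFB9 had a log2 change of -0.12, and its groups did not overlap. NDUFB5, another one, went the other way: it was at 77.3 and 72.2 TPM in the controls and at 79.5 and 89.6 TPM with JOA, a log2 change of 0.17 with an SE of 0.11. Its protein-coding transcripts overlapped between groups, at 59.7 and 61.5 TPM in the controls and 64.1 and 59.7 TPM with JOA. Those annotated as retaining an intron were at 12.4 and 7.0 TPM in the controls and 12.1 and 23.4 TPM with JOA. NDUFA8 and NDUFA4 had log2 changes of -0.01 and -0.02. NDUFA4 was first described in complex I and later found with complex IV.

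The 4 subunits of complex II had log2 changes of -0.09 to -0.01 and groups that overlapped in each. They comprise the catalytic SDHA, the iron-sulphur SDHB and the membrane anchors SDHC and SDHD. Pseudogenes of SDHA were listed at 36.2% to 50.4% of its level, so reads may have been split between them. Transcripts annotated for nonsense-mediated decay made up 53.4% to 58.2% of SDHC. In complex III, CYC1, which carries the haem of cytochrome c1, had a log2 change of -0.17 and groups that did not overlap. UQCRC2, a core subunit, was at 190 and 172 TPM in the controls and at 201 and 203 TPM with JOA, a log2 change of 0.16 with an SE of 0.10. UQCRC1, the other core subunit, had a log2 change of 0.09 (-0.01 with median-ratio scaling and -0.02 over protein-coding transcripts). Its transcripts annotated as retaining an intron were at 41.3 and 44.2 TPM in the controls and 46.4 and 68.7 TPM with JOA. UQCRFS1 had a log2 change of 0.00. The UQCRFS1 pseudogene was at 3.27% to 120% of the level of its parent, the widest range of any copy, so this member is uncertain.

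All 5 nuclear members of complex IV had a lower mean with JOA, with a median log2 change of -0.13. Without control 2 this held for COX5A and COX5B alone, and the median was 0.01. With median-ratio scaling the median was -0.23. COX5A (chr15:74919791-74938168), which with COX4I1 lies next to the MT-CO1 core, was at 435 and 382 TPM in the controls and at 378 and 306 TPM with JOA. Its groups did not overlap. Its log2 change of -0.26 with an SE of 0.13 was the lowest of the 22, with a limma adjusted p of 0.523. COX4I1 was at 740 and 822 TPM in the controls and at 764 and 729 TPM with JOA, with overlap. COX5B, COX6A1 and COX7C had log2 changes of -0.18, -0.13 and -0.02, and their groups overlapped. None of the 22 nuclear members had a log2 change as low as that of any of the 8 mitochondrial genes from MT-CO1 to MT-ND4. Outside the 22, the nuclear subunits UQCR11, NDUFA11 and UQCRQ had log2 changes of -0.36, below the -0.34 of MT-CO1. The ratio of MT-CO1 to COX4I1 was 24.0 and 24.7 in the controls and 17.9 and 22.5 with JOA. The 5 members with an NRF1 core in the promoter, COX5B, COX6A1, NDUFA8, SDHB and SDHD, had log2 changes of -0.18 to -0.01, within the range of the other nuclear members.

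**Figure D3:**
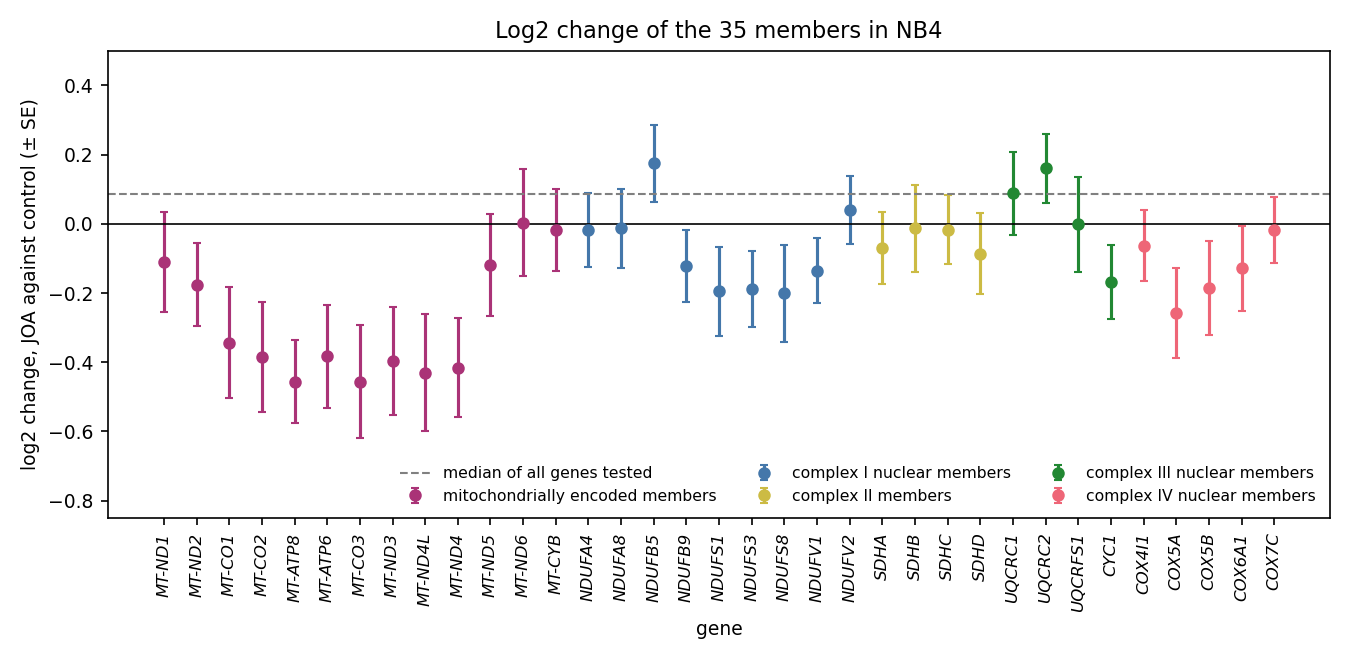
Log2 change of JOA against control in NB4 for the 35 genes (points, with the limma SE as bars), the mitochondrial genes in genome order and the nuclear ones by complex. The dashed line is the median of all genes tested, 0.08; the 8 genes from MT-CO1 to MT-ND4 lie between -0.46 and -0.34, below all 22 nuclear members.

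In Kasumi-1, 8 nuclear members had a row and 7 passed the filter of 1 FPKM in at least 3 libraries. SDHA was at 0 to 0.154 FPKM and was left out. Each row is a single transcript record, so other records of the same gene may hold other reads. Without pairing none of the 7 passed limma's test over 12014 genes, and neither did any other gene (0%). Before adjustment, 1 of the 7 and 1973 of all genes had p under 0.05. The labels give no pairing. The replicate numbers were taken as pairs because libraries of the same number deviated alike from their group means in these same data. With the number as a block the test called 1 of the 7, NDUFV1. It called 1004 of all genes (8.36%), of which 259 were lower (2.16%) and 745 higher (6.20%).

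NDUFV1 was at 31.4, 31.8 and 33.8 FPKM in the controls and at 28.5, 27.8 and 28.7 FPKM with JOA. All 3 JOA libraries were below all 3 controls, which held for 7.07% of all genes, and NDUFV1 was the only one of the 7. The mean was 32.3 ± 1.31 FPKM in the controls and 28.3 ± 0.462 FPKM with JOA (SD, n = 3). The log2 change was -0.18, with limma adjusted p values of 0.179 without the block and 0.0499 with it. Leaving out any 1 of the 3 pairs ended this call and every other call of the blocked test, an alternative added after the data were seen.

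The other complex I rows differed in direction. NDUFA4 was at 38.7, 41.8 and 40.2 FPKM in the controls and at 34.9, 38.7 and 38.2 FPKM with JOA. Its mean was lower with JOA, although the groups overlapped. Its blocked adjusted p from limma was 0.119. NDUFA8 was at 49.5, 47.2 and 43.9 FPKM in the controls and at 49.2, 46.8 and 50.7 FPKM with JOA. Its log2 change of 0.06 became -0.01 with median-ratio scaling. NDUFV2 was at only 1.04, 1.03 and 2.05 FPKM in the controls and at 1.49, 1.39 and 2.93 FPKM with JOA. It had a log2 change of 0.30, an SE of 0.24 and overlapping groups. No member had all JOA libraries above all controls, which held for 16.0% of all genes.

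In complex II, SDHB was at 28.6, 31.3 and 29.8 FPKM in the controls and at 26.6, 29.8 and 28.2 FPKM with JOA. SDHD was at 11.4, 11.8 and 10.7 FPKM in the controls and at 9.79, 10.9 and 10.4 FPKM with JOA. In complex IV, COX5A was at 130, 123 and 117 FPKM in the controls and at 117, 112 and 114 FPKM with JOA. All 3 genes had a lower mean with JOA, by 5.67%, 8.13% and 7.01%, and the groups overlapped. Their blocked adjusted p values from limma were 0.187, 0.193 and 0.158. The median log2 change of the 7 was -0.10, beside 0.05 for all genes tested. With median-ratio scaling these were -0.17 and -0.0094.

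**Figure D4:**
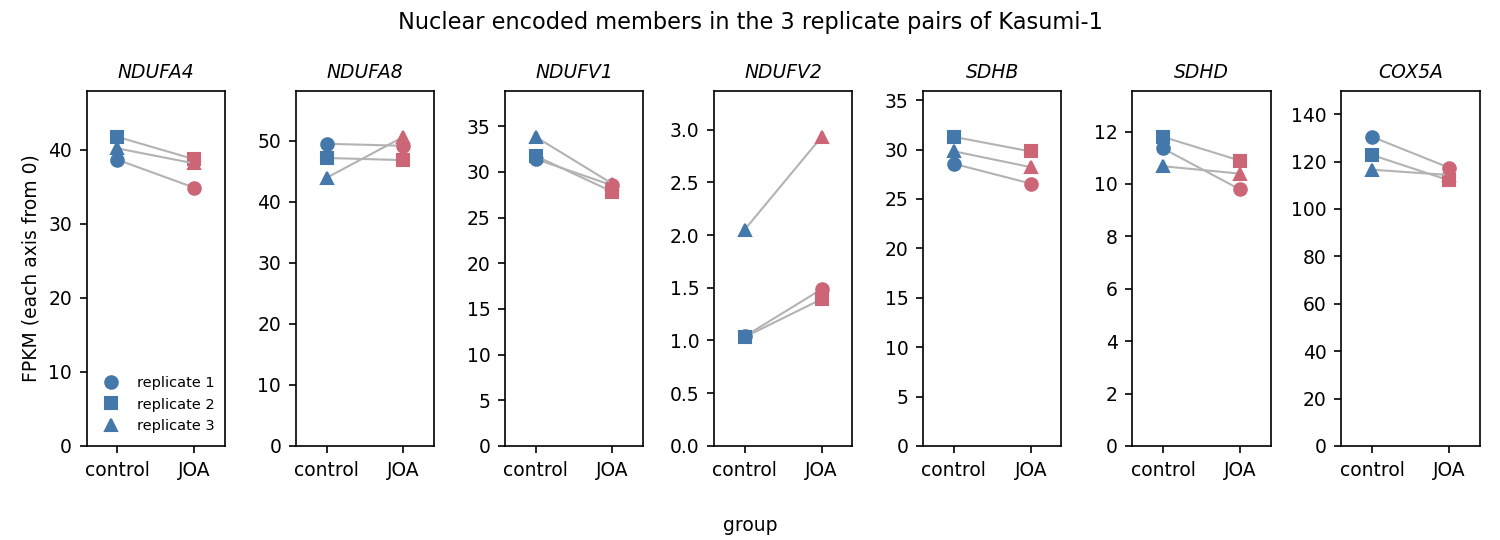
FPKM of the 7 nuclear encoded members that passed the filter in Kasumi-1, each on its own axis from 0, with lines joining libraries of the same replicate number. NDUFV1 is the only gene whose JOA libraries (27.8 to 28.7 FPKM) all sit below its controls (31.4 to 33.8 FPKM).

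The responses of the lines were compared with an interaction term fitted over 7306 genes, for the 7 nuclear members that passed the filter in both tables. None of the 7 passed, beside 14 of all genes (0.192%), and none had an unadjusted p under 0.05. SDHA entered this fit through its NB4 level alone and is not read here, since it has no measured response in Kasumi-1. The log2 changes of NDUFV1 were -0.18 (Kasumi-1) and -0.14 (NB4), a difference of -0.05 with an SE of 0.09. Those of COX5A were -0.10 and -0.26, a difference of 0.16 with an SE of 0.13 and the lowest limma adjusted p of the 7, 0.679. For NDUFV2 the difference was 0.25 with an SE of 0.31, and for the other 4 it lay between -0.09 and 0.07.

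The rest of the pathway was followed in 15 lists of 291 other genes: remaining subunits, assembly factors, the mitochondrial ribosome, the proteins that copy, transcribe and process mitochondrial DNA and RNA, the tricarboxylic acid cycle, regulators and stress genes. In NB4, 269 of these were tested and none passed limma's test, with 15 at an unadjusted p under 0.05, beside 1374 of all 12941 genes. Their median log2 change was -0.05 and 175 were negative. Over all genes the median was 0.08, and 4371 of 12941 were negative. This lean rested largely on control 2: without that library 141 of the 269 were negative and the median was -0.01, beside 0.05 over all genes. The counts by list that follow are from the fit with all 4 libraries. Of the remaining complex I subunits 21 of 28 were negative, with a median of -0.09, and NDUFA11 and NDUFB2 had log2 changes of -0.36 and -0.32. Of the remaining complex III subunits and cytochrome c 5 of 6 were negative, with a median of -0.18, and UQCR11 and UQCRQ both had log2 changes of -0.36. The remaining complex IV subunits had a median of 0.01, or -0.09 with median-ratio scaling, with COX8A at -0.13 and COX6B1 at -0.08. The nuclear subunits of ATP synthase had a median of -0.06, with ATP5F1D at -0.26 and ATP5MC1 at -0.23. Among tissue isoforms of the chain only NDUFC2-KCTD14, a read-through, was tested, at -0.65 with an SE of 0.53.

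The assembly factors had a median log2 change of -0.05 in NB4, with 28 of 47 negative. UQCC2, needed to build complex III, was at 59.8 ± 11.6 TPM in the controls and 40.0 ± 8.40 TPM with JOA (SD, n = 2), and NDUFAF8 had a log2 change of -0.44. The large subunit of the mitochondrial ribosome had 39 of 48 members negative and a median of -0.09, with MRPL23 at -0.48 and MRPL41 at -0.36. The small subunit had 21 of 32 negative and a median of -0.04, with MRPS7 at -0.34 and MRPS24 at -0.30. The proteins that transcribe the mitochondrial genome and maintain its RNA had a median of 0.00, or -0.10 with median-ratio scaling, with 13 of 26 negative. The lowest there were SLIRP, a partner of LRPPRC in keeping mitochondrial mRNAs stable, at -0.26, and HSD17B10, part of the enzyme that cuts transfer RNA 5′ ends, at -0.26. The DNA maintenance list had a median of -0.01, with the thymidine kinase TK2 at 0.62 and the topoisomerase TOP1MT at -0.25. The tricarboxylic acid cycle had a median of -0.01, with MDH2 at -0.19 and DLST at 0.16. The stress list had a median of -0.04, with the chaperonin HSPE1 at -0.39 and the protease LONP1 at -0.28.

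In Kasumi-1, 124 of the 291 were tested. None passed without the block. With it, limma called 11 (8.87%, beside 8.36% of all genes), of which 10 were lower, beside 2.16% of all genes, and 1 was higher, beside 6.20%. With median-ratio scaling added to the block, 26 were lower (21.1%, beside 5.81% of all genes) and 1 was higher (0.813%, beside 4.02%). The 10 called lower without that scaling were each lower by 0.19 to 0.27 on the log2 scale. They included CYCS, cytochrome c itself, at 49.9 ± 2.03 FPKM in the controls and 42.6 ± 1.36 FPKM with JOA (SD, n = 3), with a blocked adjusted p of 0.0355. UQCR10, a small complex III subunit, was at 54.3 ± 2.66 and 44.9 ± 2.53 FPKM, with a blocked adjusted p of 0.0292. PNPT1 and TRMT10C, which act on mitochondrial RNA, had log2 changes of -0.25 and -0.24. The ribosomal MRPL3, MRPS10 and MRPS34 had log2 changes of -0.19, -0.20 and -0.27, the tricarboxylic acid cycle genes DLD and SUCLA2 -0.21 and -0.23, and the chaperone HSPA9 -0.22. Of the listed genes that did not pass, the mitochondrial transcription factor TFAM was at -0.18 and HSD17B10 at -0.20, NDUFAF4 at -0.22 and SDHAF3 at -0.23. Among subunits that did not pass, NDUFC1 was at 0.12, NDUFB7 at -0.11, UQCRH at -0.12, COX8A at -0.11, ATP5MK at -0.17 and ATP5IF1 at -0.11. Among ribosomal and tricarboxylic acid cycle genes that did not pass, MRPL54 was at -0.22, MRPL33 at -0.17, MRPS9 at -0.24, MRPS25 at 0.20, IDH3G at -0.13 and SUCLG2 at -0.12.

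The 1 listed gene called higher in Kasumi-1, with the block, was TFE3, a transcription factor known for driving lysosomal genes. It was at 4.99 ± 0.185 FPKM in the controls and 8.31 ± 1.06 FPKM with JOA (SD, n = 3), a log2 change of 0.63 with a blocked limma adjusted p of 0.0279 and 0.117 without the block. In NB4 it was at 18.3 ± 0.413 and 28.8 ± 1.18 TPM (SD, n = 2), a log2 change of 0.62 with a limma adjusted p of 0.200. Among the other regulators, ESRRA was at 0.31 and NRF1 at -0.11 on the log2 scale in Kasumi-1, and GABPA at 0.25 in NB4, none of them past the test. In Kasumi-1 the DNA maintenance genes MGME1 and POLG were at 0.27 and 0.20, and the stress genes PSAT1 and TRIB3 at -0.21 and 0.19, also not past it.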

How the data were processed

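Per the labels' protocols, total RNA was made into libraries with a stranded mRNA kit. Per the submitters' processing notes, Trimmomatic, HISAT2, Cufflinks, HTSeq and the hg38 build were used; versions and roles are not given in the sources used here. The authors deposited FPKM per RefSeq record for Kasumi-1. The NB4 columns, deposited per transcript, each sum to 999679 to 999758, so they were read as TPM although the table is titled FPKM. Kasumi-1 records were matched to symbols through RefSeq (10906 of 29053 rows, 45.8% of FPKM), and unmatched rows stayed in the fit under their record. NB4 transcripts were summed to genes through GENCODE (93.9% matched, 3.04% of TPM unmatched). No mitochondrial rRNA was among the rows matched.

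limma 3.58.1 in R 4.3.3 was fitted per line on log2(value + 1), with a variance trend, over all genes at 1 or more in at least 3 (Kasumi-1) or 2 (NB4) libraries. Adjusted p values are Benjamini-Hochberg over all of them, with a threshold of 0.05. Changes are on the log2(value + 1) scale, which understates low genes. An interaction was fitted over both lines on 7306 genes that both tables hold by symbol. For Kasumi-1, deviations from the group means correlated, across genes, between libraries of the same number (r = 0.338, 0.509 and 0.422; other pairs at most -0.0471), so the numbers were taken as pairs. Replicates correlated at r = 0.986 to 0.992 across genes, and none held identical values. The scripts were tested on simulated data.

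The members, lists and tests were chosen with earlier results of these data known. Named were all 35 members and, of each other list, every gene past the test with or without the block in a line, plus the 2 with the largest log2 change among those with a mean of at least 5. Ratios between mitochondrial genes and the 8-gene stretch were chosen after the values were seen. Alternatives were the replicate block, a pseudocount of 0.1, no filter, median-ratio scaling, a nuclear total, protein-coding transcripts, a shared variance and leaving out each library.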

Additional observations from a re-analysis of the deposited data

How the results depend on the processing

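The count of members past the test was 0 in both lines and for the difference between lines, and every alternative gave 0 again except those with the replicate block. In Kasumi-1 the block called 1 member (NDUFV1). Together with median-ratio scaling, an alternative added after seeing the data, it called 2 (NDUFV1 with an adjusted p of 0.0312 and NDUFA4 with 0.0464, limma), and that scaling turned the split over all genes from 745 higher and 259 lower to 483 higher and 698 lower. The block changed no other call of a member in Kasumi-1 or in the difference between lines. In NB4 the numbers share only a name (r = 0.0652 between same-numbered libraries, with 2 pairs). Pairing them there called 4 members, MT-ATP8, MT-CO3, MT-ND4L and MT-ND4 (limma adjusted p from 0.0219 to 0.0497), and moved the count over all genes from 1 to 146. Of the other listed genes it called the nuclear copy MTND1P23 alone (adjusted p 0.0218).

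The mitochondrial share with JOA differed from control by -4.31 to -2.36 percentage points when each library was left out, by -3.36 with nuclear copies added and by -4.19 after median-ratio scaling. The gap between mitochondrial and nuclear members changed by -0.35 to -0.09 when each library was left out, and by -0.31 as a median over genes. The count of mitochondrial genes with both JOA libraries below both controls, 9, was 10 after median-ratio scaling. When each library was left out the count was 9 to 12. Leaving out a library can only keep or raise this count, so that range is no check of it. Where a library was left out, the lone sample of its group was assumed to vary like the others. Members that did not pass changed sign in 1 Kasumi-1 gene, 16 NB4 genes and 5 genes of the difference, all with a size of at most 0.13 (log2) in the reported fit. Depth is not known for NB4, and 2 libraries per group limit what it can show.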
